A study of Mus musculus with 11 samples.

Results

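Before a cell divides it copies its DNA, and the 43 genes described here encode the proteins that load and fire the replicative helicase, prime and extend the new strands, supply nucleotides, rebuild chromatin and switch the cell into S phase. They were chosen by name and all were found in both deposited tables, as 43 of 35118 genes in the table of tumor macrophages of the 2 genotypes and 43 of 35597 genes in the table of tumor and splenic macrophages. RNA was sequenced from macrophages of C57BL/6 mice, 6 to 8 weeks old when Lewis lung carcinoma (LLC) cells, a transplantable mouse lung tumor line, were injected under the skin, and taken 14 days later. All mice carried the floxed Sin1 gene (Sin1fl/fl). Sin1, the product of Mapkap1, is a subunit of mTOR complex 2, a kinase complex that acts on AKT and SGK1. WT_TAM were 4 libraries of tumor-associated macrophages from mice without Cre. KO_TAM were 4 libraries of the same cells from LysMCre;Sin1fl/fl mice, and WT_SP were 3 libraries of splenic macrophages from tumor-bearing mice without Cre. LysM-Cre is expressed from the Lyz2 locus and deletes in the myeloid lineage, in other myeloid cells as well as in macrophages. Tumor macrophages were sorted as positive for CD45, CD11b and F4/80 and negative for Ly6G and Ly6C, and splenic macrophages as positive for CD45 and F4/80, low for CD11b and negative for TCRβ, Ly6G and Ly6C. The labels do not say whether a library is 1 mouse, and the spread that the p-values are based on may therefore be technical.

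Between 7635600 and 13116848 reads per library were recovered from the deposited values, and levels are given as CPM, reads scaled to a common library size with the tables' own scaling factors. The library labelled WT_TAM4 had the fewest reads, and 3 reads in it equal 0.465 CPM, against 0.220 to 0.310 CPM in the other tumor libraries. Mapkap1 was read at 71.1, 66.4, 59.7 and 30.7 CPM in WT_TAM1 to WT_TAM4 and at 44.0, 54.1, 43.3 and 45.9 CPM in KO_TAM1 to KO_TAM4 (log2 fold change -0.22 ± 0.26, SE; limma adjusted p = 0.658). WT_TAM4 thus lay below every KO_TAM library for the targeted gene, against its label, while the other 3 control libraries lay above them. These are reads over the whole gene, which include exons that Cre may not remove. KO_TAM2 and the library labelled WT_TAM4 stood apart from the rest of their groups, so the main results on the genotypes are also given without both of these libraries (below, without the pair). None of the 14 marker lists had a gene at 0 in every library, and each of the 12 defining macrophage markers was read.

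DNA replication starts when the origin recognition complex, CDC6 and CDT1 load the ring of MCM2 to MCM7 onto DNA in G1. CDC45 and the GINS complex then turn the ring into the active helicase, and polymerases alpha, delta and epsilon copy the strands behind it. Most of these genes are known targets of E2F transcription factors, which cyclin D and cyclin E kinases release from the retinoblastoma proteins, and their transcripts are highest around S phase. Tumor macrophages derive largely from recruited monocytes, and some divide in place.

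The E2F letters in the promoters are shown first, because that shared control is the best known feature of the group. RefSeq promoters of GRCm38.p6, from 250 bases before to 50 after the start site, were matched by symbol for 35 of the 43 genes, with 40 promoters. Mcm4, Ccne2, Gins2, Rfc2, Pole, Gins1, Gins4 and Prim2 were not matched. Searched on both strands, the E2F letters TTTCCCGC, TTTGGCGC, TTTCGCGC and TTTGCCGC were found 20 times, in 14 of the 40 promoters (35%). The share over all 32851 promoters of the table was 2.26%. The median GC content was 60.7% in these promoters and 52.7% in all. CCAAT was in 55% of them, against 37.4% of all, and the CHR letters TTTGAA and TTCGAA in 15%, against 19.2% of all. The following stretches of 30 bases, 5′ to 3′ on the strand of the gene, hold a match of each of the 4 MCM genes with one and of the 2 genes with a match and the smallest p in each comparison, with the E2F letters in capitals.
Mcm3: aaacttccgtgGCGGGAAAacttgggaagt
Mcm5: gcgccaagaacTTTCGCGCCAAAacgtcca
Mcm6: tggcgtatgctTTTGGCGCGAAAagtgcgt
Mcm7: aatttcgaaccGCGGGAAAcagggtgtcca
Uhrf1: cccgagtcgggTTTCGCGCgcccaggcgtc
Lig1: cgccaaagtgcGCGCGAAAtctgtgtggcg
Pold1: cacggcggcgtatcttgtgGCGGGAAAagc
Cdt1: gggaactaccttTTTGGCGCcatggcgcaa

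These stretches lie at chr1:20820275-20820304 (Mcm3, minus strand), chr8:75109345-75109374 (Mcm5, plus strand), chr1:128359797-128359826 (Mcm6, minus strand), chr5:138172030-138172059 (Mcm7, minus strand), chr17:56304117-56304146 (Uhrf1, plus strand), chr7:13278841-13278870 (Lig1, plus strand), chr7:44548766-44548795 (Pold1, minus strand) and chr8:122568035-122568064 (Cdt1, plus strand). In Mcm5 and Mcm6 the capitals hold a match on each strand that overlap, and these were counted as 2. Mcm6 had the most matches, 3. Its 250 bases before the start site (chr1:128359706-128359955, minus strand) are shown because they hold all 3 of them.
Mcm6: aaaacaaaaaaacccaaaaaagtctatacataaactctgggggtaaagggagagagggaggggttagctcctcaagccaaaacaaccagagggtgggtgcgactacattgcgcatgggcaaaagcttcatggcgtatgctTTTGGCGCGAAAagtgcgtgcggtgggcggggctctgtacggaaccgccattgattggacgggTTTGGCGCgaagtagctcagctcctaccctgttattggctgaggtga
The promoter of Uhrf1 with an E2F match (chr17:56304063-56304312, plus strand) is shown because Uhrf1 was among the genes with the smallest p between the genotypes.
Uhrf1: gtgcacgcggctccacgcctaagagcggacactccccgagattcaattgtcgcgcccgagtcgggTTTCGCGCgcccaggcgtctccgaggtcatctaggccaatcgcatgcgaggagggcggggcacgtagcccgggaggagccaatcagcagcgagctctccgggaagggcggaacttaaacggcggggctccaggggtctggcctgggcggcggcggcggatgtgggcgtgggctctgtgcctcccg
Counted in bases from the start site, the centres of the 20 matches lay between -181 and 43 with a median of -30, at -106, -102 and -43 in Mcm6 and at -149 and -145 in Mcm5. The only RefSeq start of E2f1 lies 466 bases inside the annotated gene, so its window does not cover the region before the gene. A match is a description of letters and shows no binding. The start used for Uhrf1 lies 992 bases inside the annotated gene. The starts used for Lig1 and Mcm7 also lie inside the annotated genes, and so do their printed stretches. These genes begin at base 13277283 (Lig1, plus strand) and base 138172422 (Mcm7, minus strand).

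**Figure D1:**
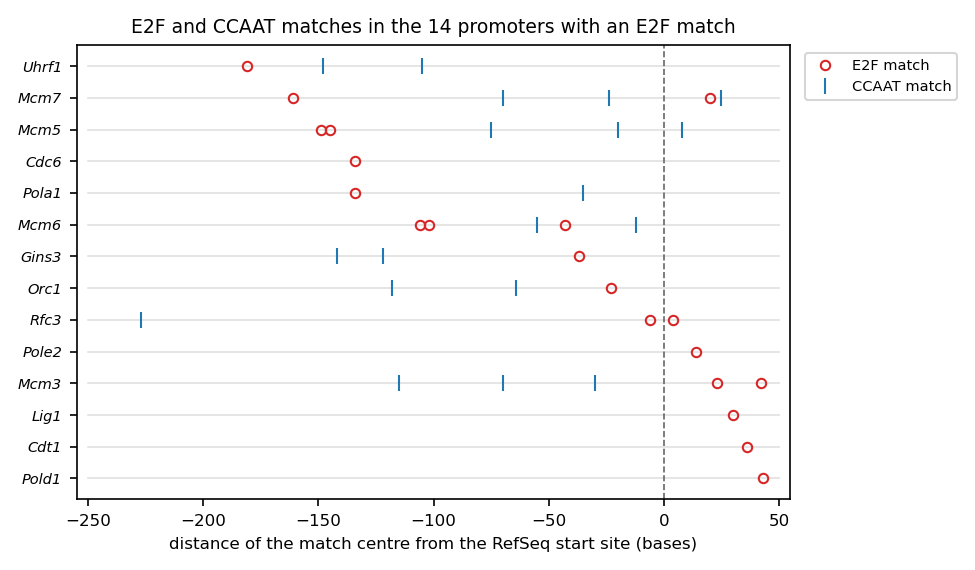
E2F (circles) and CCAAT (bars) matches by distance in bases from the RefSeq start site (dashed line) in the 14 promoters with an E2F match. Mcm6 carries 3 E2F matches, and the 20 E2F matches lie between -181 and 43.

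The first comparison was of tumor macrophages with and without the deletion, KO_TAM against WT_TAM. The replication genes were read at lower levels in the deleted group, but no gene passed the test. Of the 42 genes tested, 41 had a log2 fold change below 0, with a median of -0.64, while the median over all 12808 genes tested was 0.01 and 49.4% of those were below 0. The limma fit over all genes called 0 genes at an adjusted p of 0.05, so 0 replication genes as well (percent called 0 in each direction). At an unadjusted p under 0.05, 19 of the 42 were lower and 0 higher, while 9.70% of all genes tested were lower and 8.66% higher at that level. The 2 groups did not overlap for 16 of the 42, all of them lower in KO_TAM, against 8.74% of all genes tested that were lower without overlap and 6.43% that were higher. Without KO_TAM4 that number was 25, against 11.9% of all genes lower and 9.82% higher without overlap. Without KO_TAM2 it was 16, against 1275 of all 13321 genes tested lower and 975 higher without overlap. In the fit without KO_TAM2 the median was -0.46. There 13 of the 42 were lower and 0 higher at an unadjusted p under 0.05, against 850 and 644 of all genes tested. Summed over the 43 genes the level was 1201, 951, 1117 and 1423 CPM in KO_TAM1 to KO_TAM4 and 1784, 1572, 1608 and 1771 CPM in WT_TAM1 to WT_TAM4. Each KO_TAM library thus lay below each WT_TAM library in this sum.

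Without KO_TAM2 and the library labelled WT_TAM4 the median was -0.46, with 41 of 42 again below 0. In that fit 23 of the 42 were lower at an unadjusted p under 0.05 and 0 higher (9.50% and 8.02% of all genes tested), and 23 lay wholly below WT_TAM and 0 above it (13.3% and 9.83% of all). Limma then called 65 genes, 21 higher (0.162%) and 44 lower (0.339%), and none of them was a replication gene. KO_TAM2 was the lowest library of its group for 32 of the 43 genes and the lowest of all 8 for 31. With array weights, which let limma count such libraries less, 387 genes were called, 140 higher (1.09%) and 247 lower (1.93%), and among them were Cdc45, Mcm2, Mcm6 and Uhrf1, all lower.

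**Figure D2:**
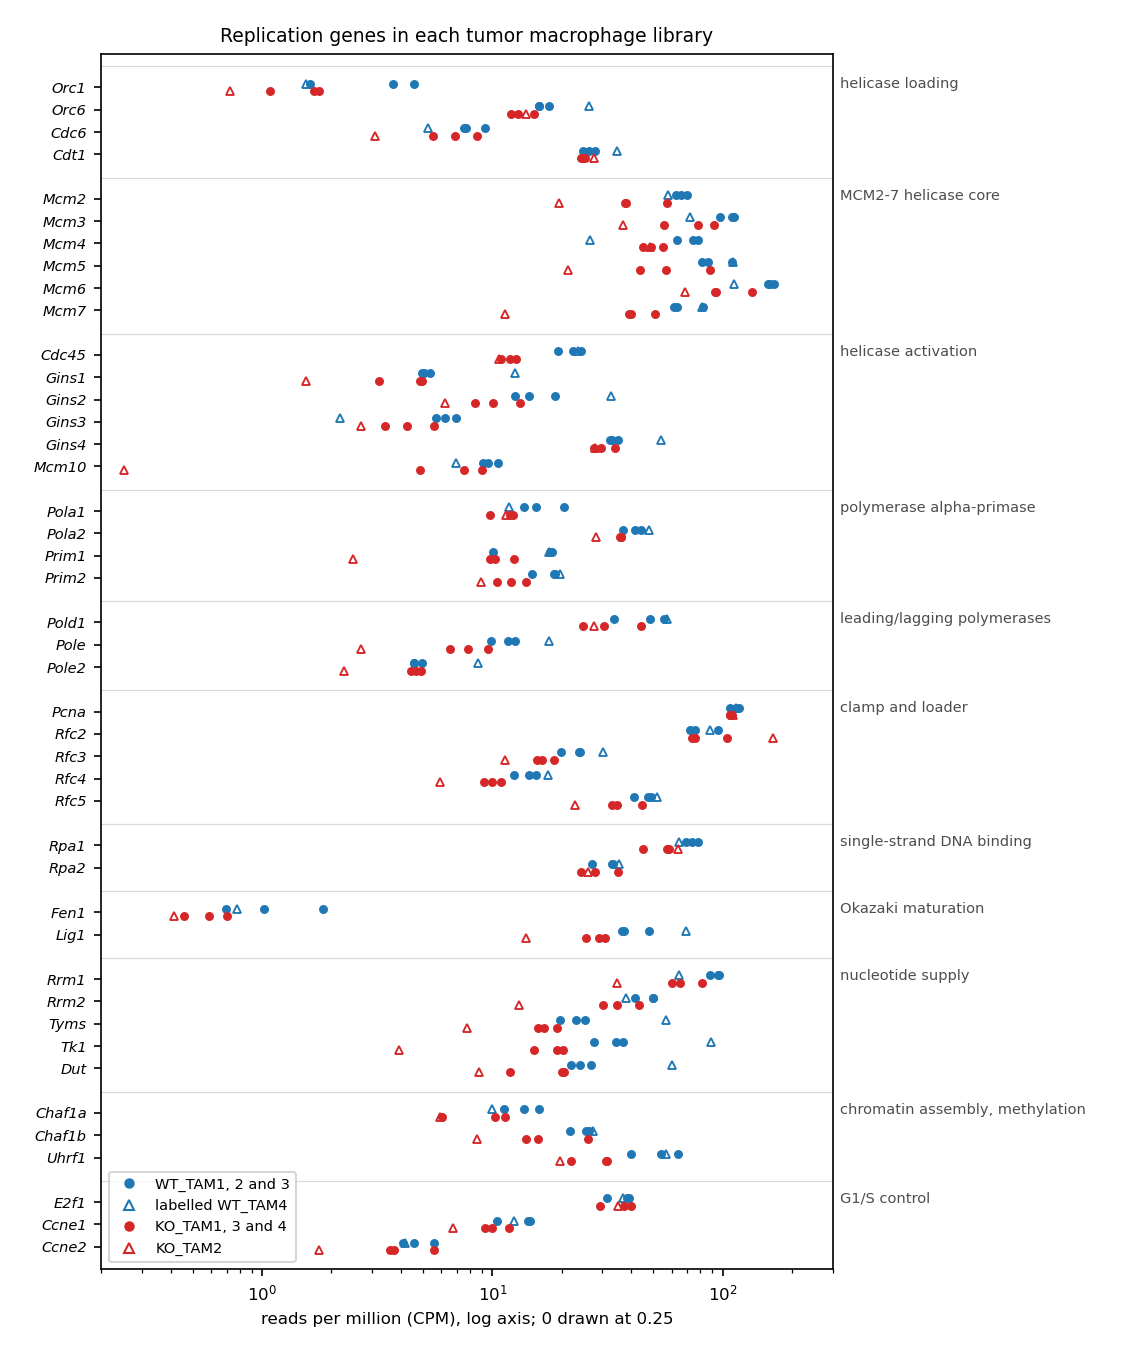
CPM (log axis) of each of the 43 genes in the 8 tumor macrophage libraries, with the 2 libraries that stood apart as open triangles and the 0 of Mcm10 drawn at the left edge. Cdc45 and Uhrf1 separate the groups in all 8 libraries, Pcna and E2f1 do not, and KO_TAM2 is often the lowest point.

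Loading of the helicase is represented by Orc1, Orc6, Cdc6 and Cdt1, whose median was -0.39. Cdt1, the loading factor with the highest level of these, stood at 24.8, 27.7, 24.2 and 25.3 CPM in KO_TAM1 to KO_TAM4 and at 27.8, 26.2, 24.7 and 34.9 CPM in WT_TAM1 to WT_TAM4. The groups overlapped and the difference was within the spread (-0.14 ± 0.18, SE; limma adjusted p = 0.670). None of the 4 reached an unadjusted p under 0.05. Orc1, the largest subunit of the origin recognition complex, had the lowest fold change of them at -0.82 ± 0.39, from only 7 to 62 reads per library. Orc6 did not overlap between the groups, at 12.1 to 15.1 CPM in KO_TAM and 15.9 to 26.3 CPM in WT_TAM.

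The 6 genes of the MCM ring, the core of the replicative helicase, were all below 0, with a median of -0.74. Mcm6, at the highest level of the 6, was read at 93.9, 68.3, 93.0 and 134 CPM in KO_TAM1 to KO_TAM4 and at 167, 161, 157 and 112 CPM in WT_TAM1 to WT_TAM4. Only the library labelled WT_TAM4 and KO_TAM4 overlapped there, and the log2 fold change was -0.64 ± 0.23 (limma adjusted p = 0.208). Without the pair of libraries it was -0.61 ± 0.14 with an adjusted p of 0.0747 by limma. Mcm2, Mcm5, Mcm6 and Mcm7 had an unadjusted p under 0.05, and Mcm2 and Mcm7 did not overlap between the groups. Mcm7 had the lowest value of the 6, -1.20 ± 0.40, with 11.4 CPM in KO_TAM2 against 39.0 to 50.9 CPM in the rest of its group, and stood at -0.66 ± 0.15 without the pair. Mcm4 was nearest to 0 at -0.19 ± 0.31, and at -0.54 ± 0.13 without the pair, since WT_TAM4 had 26.5 CPM against 63.5 to 78.3 CPM in the other controls. Without the pair the 6 lay between -0.52 and -0.66, closer together than with all libraries.

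Helicase activation gave the gene with the smallest p. Cdc45, the subunit that joins the MCM ring and GINS in the active helicase (chromosome 16, 18780447 to 18811987, minus strand), stood at 10.9, 10.6, 11.9 and 12.7 CPM in KO_TAM1 to KO_TAM4. In WT_TAM1 to WT_TAM4 it stood at 24.2, 19.2, 22.4 and 23.6 CPM. Every KO_TAM library lay below every WT_TAM library by a wide gap, with means of 11.5 ± 0.951 and 22.3 ± 2.23 CPM (SD, n = 4 each). The log2 fold change was -0.92 ± 0.18, the unadjusted p 0.000458 and the limma adjusted p 0.102, and without the pair -0.86 ± 0.17 with a limma adjusted p of 0.0550. Over all settings tried Cdc45 ranged from -0.99 to -0.85, with limma adjusted p from 0.0192 to 0.254.

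Gins2, a subunit of the GINS complex, had 10.1, 6.20, 8.44 and 13.2 CPM in KO_TAM and 18.6, 12.6, 14.4 and 32.9 CPM in WT_TAM, replicates 1 to 4. KO_TAM4 reached just above WT_TAM2, and the log2 fold change was -0.96 ± 0.33 (limma adjusted p = 0.196), or -0.51 ± 0.22 without the pair. Of its 4097 annotated exon bases, 67.3% are shared with Gse1 on the other strand, while the length used in the tables was 1036 bases. The strand setting of the counting is not given, so how reads in the shared bases were counted is not known. Gins4 had 29.7, 28.0, 27.7 and 34.2 CPM in KO_TAM and 35.0, 33.1, 32.4 and 54.2 CPM in WT_TAM. The groups overlapped and the value was -0.34 ± 0.21 (limma adjusted p = 0.385). Mcm10, which helps to start the helicase, had 0 reads in KO_TAM2, which allows up to 0.310 CPM (3 reads), and 58 to 102 reads in the rest of KO_TAM. It stood at -1.32 ± 0.79 with all libraries and at -0.46 ± 0.24 without the pair.

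Polymerase alpha-primase lays down the RNA-DNA primers, and its 4 genes had a median of -0.52. Prim2, the large primase subunit, had 10.5, 8.89, 14.0 and 12.1 CPM in KO_TAM1 to KO_TAM4 and 18.5, 18.8, 14.8 and 19.7 CPM in WT_TAM1 to WT_TAM4. The groups lay side by side without overlap (-0.65 ± 0.21; limma adjusted p = 0.181). Pola2, the B subunit of polymerase alpha, had 36.1, 28.2, 35.9 and 36.1 CPM in KO_TAM and 41.6, 44.2, 36.8 and 47.9 CPM in WT_TAM, again without overlap but with a smaller difference (-0.32 ± 0.17; limma adjusted p = 0.334). Prim1, the catalytic primase subunit, was at 2.48 CPM in KO_TAM2 against 9.79 to 12.4 CPM in the rest of KO_TAM, and its value of -0.99 ± 0.44 became -0.45 ± 0.24 without the pair.

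Among the polymerases of the leading and lagging strands, Pold1, the catalytic subunit of polymerase delta, had 44.1, 27.7, 24.7 and 30.4 CPM in KO_TAM1 to KO_TAM4. In WT_TAM1 to WT_TAM4 it had 55.7, 48.3, 33.9 and 57.5 CPM. KO_TAM1 lay within the range of the controls (-0.62 ± 0.24; limma adjusted p = 0.228). Pole, the catalytic subunit of polymerase epsilon, did not overlap, at 2.69 to 9.52 CPM in KO_TAM and 9.89 to 17.7 CPM in WT_TAM (-1.0005 ± 0.36). Pole2, another subunit of that enzyme, was at -0.44 ± 0.32 and at -0.01 ± 0.22 without the pair.

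Pcna, the sliding clamp that holds the polymerases on DNA and the gene with the highest level per length of the group (89.7 ± 3.23 RPKM in WT_TAM and 86.1 ± 1.19 RPKM in KO_TAM, SD, n = 4 each, which is CPM per kilobase of the transcript length used in the tables), differed by less than the spread. Its levels were 108, 110.5, 110.0 and 107 CPM in KO_TAM1 to KO_TAM4 and 115, 108, 117 and 115 CPM in WT_TAM1 to WT_TAM4. The log2 fold change was -0.06 ± 0.15 (limma adjusted p = 0.844), and it stood at 0.01 when library totals were used without the authors' factors. The clamp is placed by replication factor C, and Rfc3, Rfc4 and Rfc5, 3 of its small subunits, stood at -0.65, -0.73 and -0.51, each with an unadjusted p under 0.05. Rfc2, the remaining small subunit, was the only replication gene above 0 (0.27 ± 0.26; limma adjusted p = 0.581). Its levels were 75.8, 166, 73.8 and 104 CPM in KO_TAM1 to KO_TAM4 and 95.3, 75.8, 72.4 and 88.0 CPM in WT_TAM1 to WT_TAM4, so the value rested on KO_TAM2, and it was 0.05 ± 0.16 without the pair. Of the 6303 annotated exon bases of Rfc2, 15.1% are shared with Lat2 on the other strand, while the length used in the tables was 1450 bases.

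Replication protein A covers single-stranded DNA. Rpa1, its largest subunit, had 58.2, 63.8, 45.3 and 57.6 CPM in KO_TAM1 to KO_TAM4 and 73.3, 78.2, 69.0 and 64.6 CPM in WT_TAM1 to WT_TAM4. The groups came close without overlap (-0.35 ± 0.17; limma adjusted p = 0.304). Rpa2 overlapped and stood at -0.19 ± 0.19.

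Okazaki fragments are trimmed by FEN1 and joined by DNA ligase I. Lig1 (chromosome 7, 13277283 to 13311433, plus strand) had 30.8, 14.1, 25.4 and 28.9 CPM in KO_TAM1 to KO_TAM4 and 48.0, 36.5, 37.3 and 69.4 CPM in WT_TAM1 to WT_TAM4. Its highest KO_TAM value was under its lowest WT_TAM value, with a log2 fold change of -0.94 ± 0.29 (limma adjusted p = 0.170), or -0.50 ± 0.15 without the pair (0.133). Fen1 was not tested, since it had only 4 to 25 reads per tumor library. Tmem258 and Gm10143 on the other strand share 84.2% of its exon bases.

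The nucleotide supply genes held the largest difference. Tk1, the cytosolic thymidine kinase (chromosome 11, 117815526 to 117826092, minus strand), had 15.1, 3.93, 19.1 and 20.3 CPM in KO_TAM1 to KO_TAM4 and 36.9, 27.5, 34.5 and 88.8 CPM in WT_TAM1 to WT_TAM4. No library overlapped, but the lowest value was that of KO_TAM2 and the highest that of the library labelled WT_TAM4. The log2 fold change was -1.71 ± 0.51 with all libraries (limma adjusted p = 0.160) and -0.84 ± 0.17 without the pair (0.0564). Rrm1, the large subunit of ribonucleotide reductase, had 65.0, 34.7, 60.2 and 81.5 CPM in KO_TAM and 95.3, 88.4, 95.95 and 64.9 CPM in WT_TAM. Its groups overlapped only through WT_TAM4 (-0.56 ± 0.26; limma adjusted p = 0.289). Tyms, thymidylate synthase, and Dut, which removes dUTP, did not overlap between the groups and stood at -0.99 ± 0.37 and -1.05 ± 0.37, or at -0.38 ± 0.16 and -0.50 ± 0.21 without the pair. Rrm2, the small subunit of the reductase, was at -0.67 ± 0.33.

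Chromatin behind the fork is rebuilt by the CAF-1 complex, and UHRF1 brings the maintenance methylase DNMT1 to newly copied DNA. Uhrf1 (chromosome 17, 56303321 to 56323486, plus strand) had 31.4, 19.6, 22.1 and 31.1 CPM in KO_TAM1 to KO_TAM4 and 64.2, 53.9, 39.8 and 56.6 CPM in WT_TAM1 to WT_TAM4. Each KO_TAM library lay below each WT_TAM library, with means of 26.1 ± 6.10 and 53.6 ± 10.2 CPM (SD, n = 4 each). The log2 fold change was -1.04 ± 0.23 (limma adjusted p = 0.108), and -0.88 ± 0.20 without the pair (0.0674). Chaf1b and Chaf1a, subunits of CAF-1, stood at -0.74 ± 0.30 and -0.61 ± 0.28, with overlap between the groups. Of the 8854 annotated exon bases of Chaf1a, 52.5% are shared with Ubxn6 on the other strand, while the length used in the tables was 3322 bases.

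The 3 G1/S regulators had a median of -0.37. E2f1, a transcription factor that activates replication genes, had 39.9, 35.0, 37.3 and 29.2 CPM in KO_TAM1 to KO_TAM4 and 39.1, 38.6, 31.6 and 36.7 CPM in WT_TAM1 to WT_TAM4. The groups overlapped throughout (-0.05 ± 0.18; limma adjusted p = 0.890), and the sign changed without KO_TAM4 (0.04) and under library totals alone (0.02). Ccne1 and Ccne2, the E-type cyclins, stood at -0.45 ± 0.23 and -0.37 ± 0.32. None of the 3 had an unadjusted p under 0.05. The 14 matched genes with an E2F match had a median of -0.64, and so did the 20 tested genes of the 21 without one (Fen1 was not tested).

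**Figure D3:**
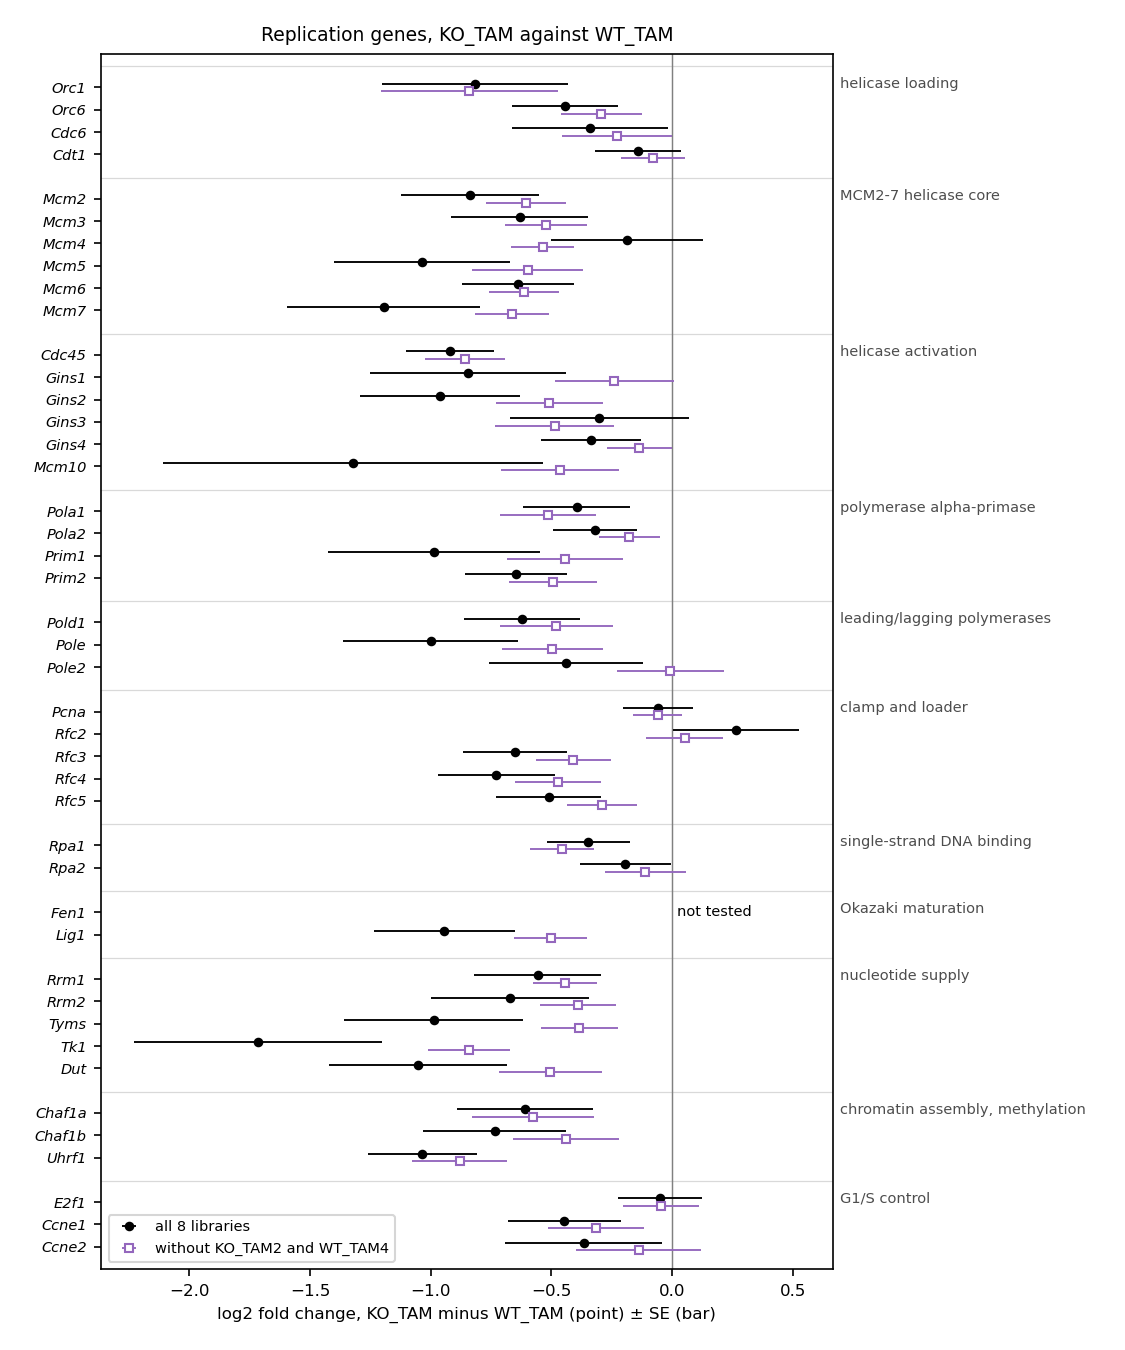
Log2 fold change (KO_TAM minus WT_TAM, on log2(CPM + 0.5)) ± SE of the 42 tested genes by role, with all 8 libraries (filled) and without KO_TAM2 and WT_TAM4 (open). All but Rfc2 lie below 0 in both fits, and the open points lie mostly nearer to 0.

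Further genes of the pathway, from lists that leave out the 43, lay on both sides of 0, and none passed the test. Of 41 other replication machinery genes tested, 29 were below 0 and 12 above, with a median of -0.21, and 6 were lower at an unadjusted p under 0.05. Timeless, which protects the fork, and Top2a, topoisomerase II alpha, had the lowest values there, at -1.38 ± 0.30 (limma adjusted p = 0.108) and -1.47 ± 0.40 (0.136). Of 10 other nucleotide supply genes 7 were below 0, with a median of -0.59, 5 of them lower and 1 higher at an unadjusted p under 0.05. Ctps, CTP synthase, stood at -1.05 ± 0.35 and Shmt1 at -0.86 ± 0.27, the 2 furthest from 0 in that list. Samhd1, which breaks down dNTPs, was the higher one (0.73 ± 0.27; limma adjusted p = 0.217), and it was among the genes with altered deposited values that were restored. Of 29 tested E2F-Rb and G1/S regulators 15 were below 0, with a median of -0.05, and E2f7 (-1.54 ± 0.44) and Cdkn2c (-1.51 ± 0.35) were furthest from 0. The 8 tested checkpoint genes had a median of 0.09. Chek1 (-0.75 ± 0.37) and Hus1 (0.56 ± 0.33) differed most there.

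Other transcripts differed between the same libraries. All 20 mitosis genes were below 0, with a median of -1.19, and their sum was 158 to 435 CPM in KO_TAM and 575 to 933 CPM in WT_TAM. KO_TAM2 was the library at 158 CPM, and the other 3 were at 394 to 435 CPM. All 9 transcripts of the mitochondrial genome were below 0 (sum 3830 to 15836 CPM against 9679 to 60871 CPM), as were all 8 fibroblast markers (37.2 to 281 against 477 to 1021 CPM) and 5 of 6 tested erythroid markers (52.9 to 289 against 173 to 753 CPM). All 4 tested neutrophil markers were above 0, and the 10 in the list summed to 277 to 953 against 111 to 206 CPM. That sum was mostly Retnlg (means of 293 and 73.9 CPM) and Mmp8 (147 and 33.3 CPM). Of the markers not tested, S100a9 was higher in KO_TAM (1.56 and 0.689 CPM), Ltf lower (0.390 and 0.960) and Ly6g near 0 (0.038 and 0.018). Of 5 tested markers of mast cells, basophils and eosinophils 4 were above 0, and the 8 in the list summed to 141 to 663 against 15.03 to 109 CPM. KO_TAM2 was the highest in both sums. Cpa3 was the 1 below 0 (-1.87 ± 0.81; limma adjusted p = 0.259), with means of 3.04 CPM in KO_TAM and 6.75 CPM in WT_TAM. Of those not tested, Ms4a2 (0.273 and 0.730 CPM) and Fcer1a (0.481 and 0.658 CPM) were lower in KO_TAM, and Mcpt8 was higher (4.33 and 0.719 CPM). Of the 12 defining macrophage markers 7 were below 0, with a median of -0.04, and none was called. At an unadjusted p under 0.05, 3 were higher and 3 lower. Ptprc (1.11 ± 0.44), Adgre1 (0.85 ± 0.33) and Itgam (0.56 ± 0.18), the genes of proteins used in the sort, were higher. Lyz2 (-1.64 ± 0.46), C1qa (-1.29 ± 0.38) and C1qb (-1.07 ± 0.34) were lower. The sum of the list was 13185 to 24980 against 33126 to 50708 CPM. It includes Lyz2 with the Cre insertion, which had the highest means of the list (10333 and 27423 CPM). The sum of the 8 epithelial markers overlapped between the groups (187 to 404 against 175 to 357 CPM) and was mostly Cdh1 (means of 245 and 188 CPM). Of the 4 tested, 2 were above 0 and 2 below. Sox9, in the same list, did not overlap, at 7.03 to 26.1 CPM in KO_TAM and 48.0 to 97.6 CPM in WT_TAM (-2.20 ± 0.38; limma adjusted p = 0.102). The sum of the 6 endothelial markers did not overlap (94.2 to 172 against 55.02 to 85.0 CPM) and was mostly Pecam1 (means of 96.6 and 40.6 CPM). All 3 tested were above 0, with Pecam1 at 1.29 ± 0.33 (limma adjusted p = 0.128). Cdh5, Tek and Emcn had too few reads to be tested, and their means were lower in KO_TAM (0.201 against 0.428, 0.0699 against 0.507 and 0.745 against 0.867 CPM). The part of these transcripts in the values of the replication genes was not tested. In bulk RNA, fewer dividing cells and less replication RNA per cell cannot be told apart.

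**Figure D4:**
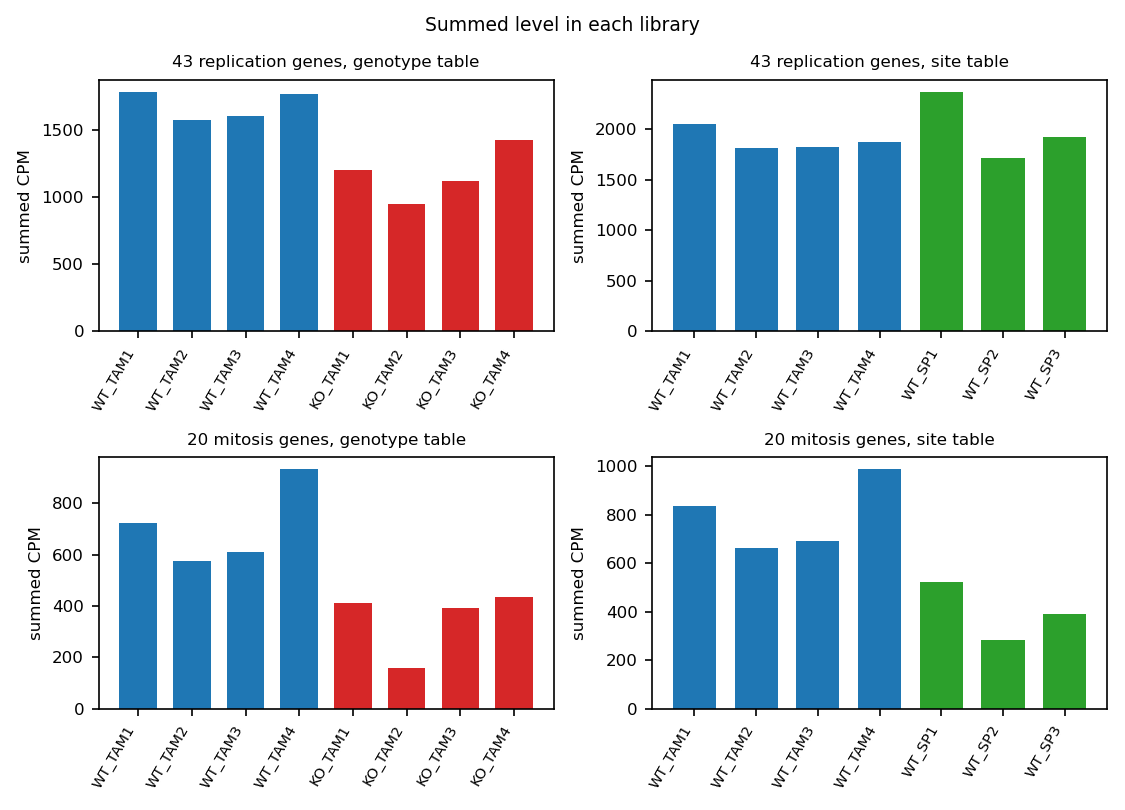
Summed CPM of the 43 replication genes (top) and of 20 mitosis genes (bottom) in each library, in the genotype table (left) and the site table (right), with bars from 0. Both sums are lower in each KO_TAM library than in each WT_TAM library, while against WT_SP the replication sums overlap and the mitosis sums do not.

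Some of the spread among controls followed transcript length. In the library labelled WT_TAM4 the 9 replication genes with a length under 1300 bases in the tables were higher than in the rest of WT_TAM by a median log2 of 0.66, and the 12 with a length over 3000 bases were lower, at -0.44. Over all genes tested the medians in that library were 0.61 for 2454 short genes and -0.37 for 4099 long genes. These length classes were chosen after the values were seen. In KO_TAM2 the short and long replication genes were both lower than in the rest of KO_TAM, at -0.70 and -0.83, while over all genes the medians there were -0.16 and 0.08.

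The second comparison was of tumor with splenic macrophages in mice without Cre, WT_TAM against WT_SP, which shares the WT_TAM libraries with the first. Here some replication genes were higher and others lower in the tumor. Limma called 9 of the 43 genes, 5 higher and 4 lower in WT_TAM, with 27 above 0 and 16 below. Of all 14168 genes tested, 23.1% were called higher and 23.6% lower. The median of the 43 was 0.13 and that of all genes -0.07. The groups did not overlap for 16 genes, 9 of them higher and 7 lower (26.3% and 29.8% of all genes). Without WT_SP1 the median was 0.26, and 17 were higher and 7 lower without overlap (28.5% and 31.6% of all genes). Without WT_SP2 the median was 0.0072, with 22 above 0 and 21 below, and without WT_SP3 it was 0.09. At an unadjusted p under 0.05, 6 were higher and 6 lower (26.3% and 27.6% of all genes). Their summed level was 2055, 1815, 1821 and 1874 CPM in WT_TAM1 to WT_TAM4 and 2371, 1721 and 1924 CPM in WT_SP1 to WT_SP3, with the splenic libraries on both sides of the tumor libraries.

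The scaling between tumor and spleen set the direction of many of these genes. With library totals in place of the authors' factors the median of all genes moved from -0.07 to -0.52 and that of the replication genes from 0.13 to -0.35, so that the replication genes lay 0.19 above all genes in the first case and 0.18 above them in the second. With totals alone 14.9% of all genes were called higher and 39.4% lower, 17 of the 43 replication genes changed sign, and 2 were called higher and 8 lower. E2f1 and Gins2 were called higher and Pold1, Rpa1, Cdt1 and Rfc2 lower under both scalings. Cdc45 kept its direction at 0.63 but missed the threshold (limma adjusted p = 0.0506), and Chaf1b and Prim2, at 0.22 and 0.13, also did.

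E2f1 (chromosome 2, 154559407 to 154569892, minus strand) had the largest difference. It was read at 45.1, 44.6, 35.8 and 38.9 CPM in WT_TAM1 to WT_TAM4 and at 9.02, 7.57 and 7.99 CPM in WT_SP1 to WT_SP3. Every tumor library was far above every splenic one, with means of 41.1 ± 4.53 (SD, n = 4) and 8.19 ± 0.749 (SD, n = 3). The log2 fold change was 2.25 ± 0.18 (limma adjusted p = 1.72e-05), and it lay between 1.80 and 2.36 over all settings. Ccne1 and Ccne2, in the same role, did not differ beyond their spread (-0.0023 ± 0.30 and 0.26 ± 0.31).

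Genes of helicase activation were mostly above 0. Cdc45 was higher in tumor macrophages, with 27.9, 22.1, 25.4 and 24.9 CPM in WT_TAM1 to WT_TAM4 and 14.7, 8.49 and 12.0 CPM in WT_SP1 to WT_SP3 (1.10 ± 0.22; limma adjusted p = 0.00373). The groups did not overlap. Gins2 was also higher, with 21.4, 14.5, 16.3 and 34.8 CPM against 9.52, 5.48 and 6.67 CPM (1.48 ± 0.33; limma adjusted p = 0.00628). Its partner Gins4 showed 40.4, 38.2, 36.7 and 57.4 CPM against 41.9, 40.5 and 41.1 CPM and did not differ beyond its spread (0.04 ± 0.20; limma adjusted p = 0.873). Without the library labelled WT_TAM4 Gins4 stood at -0.10. Gins3 pointed the other way, at -0.87 ± 0.40, and did not pass (limma adjusted p = 0.103). It was called lower with library totals (limma adjusted p = 0.027), with array weights (0.0361) and without WT_TAM4 (-0.50; 0.0465).

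Pold1 (chromosome 7, 44532746 to 44548849, minus strand) was the gene that fell most. It had 64.2, 55.8, 38.4 and 60.8 CPM in WT_TAM1 to WT_TAM4 and 170.4, 151 and 155 CPM in WT_SP1 to WT_SP3. The tumor libraries all lay far below the splenic ones (-1.55 ± 0.21; limma adjusted p = 0.000388), between -2.02 and -1.39 over all settings. The polymerase epsilon genes Pole and Pole2 did not differ beyond their spread, at 0.28 ± 0.27 and 0.14 ± 0.33.

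Rpa1 was lower in the tumor as well, with 84.4, 90.3, 78.2 and 68.4 CPM in WT_TAM1 to WT_TAM4 and 141, 135 and 136 CPM in WT_SP1 to WT_SP3. The groups were apart (-0.78 ± 0.16; limma adjusted p = 0.00431). Rpa2 lay in the same direction without passing (-0.39 ± 0.16; limma adjusted p = 0.0772), and was called lower with library totals (0.00471), array weights (0.00777) and without WT_TAM4 (0.00982). Cdt1 was lower in WT_TAM, with 32.1, 30.3, 28.0 and 36.9 CPM against 48.4, 44.7 and 45.8 CPM (-0.54 ± 0.17; limma adjusted p = 0.0275). Rfc2 was lower too, with 109.9, 87.5, 82.0 and 93.1 CPM against 131, 123 and 128 CPM (-0.46 ± 0.17; limma adjusted p = 0.0479). Both were apart between the groups. Cdt1 missed the threshold when any library other than WT_TAM4 was left out (limma adjusted p from 0.0547 to 0.103), and Rfc2 missed it without WT_TAM2, WT_TAM3 or any WT_SP library (0.101 to 0.146). Cdt1 and Rfc2 also missed it with no filter on low reads (limma adjusted p = 0.155 and 0.199) and with the deposited values (0.167 and 0.234). Rpa1 missed it with the deposited values (limma adjusted p = 0.120), and Cdt1 with quantile normalization (0.0598).

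Prim2 was higher in WT_TAM, with 21.3, 21.7, 16.8 and 20.8 CPM against 15.8, 13.8 and 10.4 CPM (0.59 ± 0.21; limma adjusted p = 0.0475). Chaf1b was higher too, with means of 28.3 ± 2.21 (SD, n = 4) and 17.8 ± 5.15 CPM (SD, n = 3; 0.69 ± 0.22; limma adjusted p = 0.0307). Prim2 missed the threshold without WT_TAM1, WT_TAM2 or any WT_SP library (limma adjusted p from 0.0546 to 0.208), and Chaf1b without WT_TAM1, WT_TAM3, WT_SP2 or WT_SP3 (0.0663 to 0.142). Pola2 had 48.0, 51.0, 41.7 and 50.7 CPM against 45.5, 44.1 and 47.8 CPM and did not differ beyond its spread (0.06 ± 0.16). Lig1 had 55.3, 42.1, 42.2 and 73.4 CPM against 50.2, 31.6 and 33.4 CPM, and Uhrf1 73.97, 62.2, 45.1 and 59.8 CPM against 65.0, 34.0 and 43.04 CPM. Both overlapped and missed the threshold (0.46 ± 0.26 and 0.38 ± 0.26).

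None of the 6 genes of the MCM ring was called with all libraries and the authors' factors, where their median was -0.23 and 4 of 6 were below 0. Mcm6 had 192, 186, 178 and 118 CPM in WT_TAM1 to WT_TAM4 and 205, 128 and 143 CPM in WT_SP1 to WT_SP3. WT_SP1 was the highest and WT_TAM4 the lowest of them (0.09 ± 0.24; limma adjusted p = 0.777). Mcm2, at -0.55 ± 0.21 (limma adjusted p = 0.0565), was the member of the ring nearest to the threshold. It was called lower with library totals (0.00533), quantile normalization (0.0163), array weights (0.0192) and without WT_TAM4 (0.0214, all limma adjusted p). Mcm7, at -0.44 ± 0.22, was called lower with library totals (limma adjusted p = 0.0096) and array weights (0.0496). Pcna lay higher in each tumor library, at 132, 124, 133 and 121 CPM against 109, 96.5 and 104 CPM, but missed the threshold (0.30 ± 0.15; limma adjusted p = 0.130). It was called without the library labelled WT_TAM4 (0.33; limma adjusted p = 0.00773) and stood at -0.17 under library totals alone.

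Rrm1 had 109.8, 102, 109 and 68.7 CPM in WT_TAM1 to WT_TAM4 and 128, 82.4 and 87.2 CPM in WT_SP1 to WT_SP3, with no difference beyond the spread (-0.02 ± 0.24). Tk1 had 42.5, 31.7, 39.1 and 93.9 CPM against 32.6, 18.8 and 22.6 CPM (0.96 ± 0.37; limma adjusted p = 0.0620). WT_SP1 reached into the range of the tumor libraries there. Without the library labelled WT_TAM4 Tk1 was at 0.63 and passed (limma adjusted p = 0.0165), and without WT_TAM2 it was at 1.15 and passed (0.0455). Leaving out WT_TAM4 raised the number of replication genes called from 9 to 17, with 32.2% of all genes then called higher and 33.5% lower, and leaving out WT_SP2 or WT_SP3 reduced it to 5 (17.2% of all genes called higher and 17.2% lower without WT_SP2, and 16.9% and 16.9% without WT_SP3). With array weights 12 were called higher and 9 lower, with 32.9% and 34.1% of all genes. With no filter on low reads 3 were called higher and 2 lower (8.35% and 8.93% of all genes), and with the deposited values 3 and 1 (19.9% and 18.5%).

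**Figure D5:**
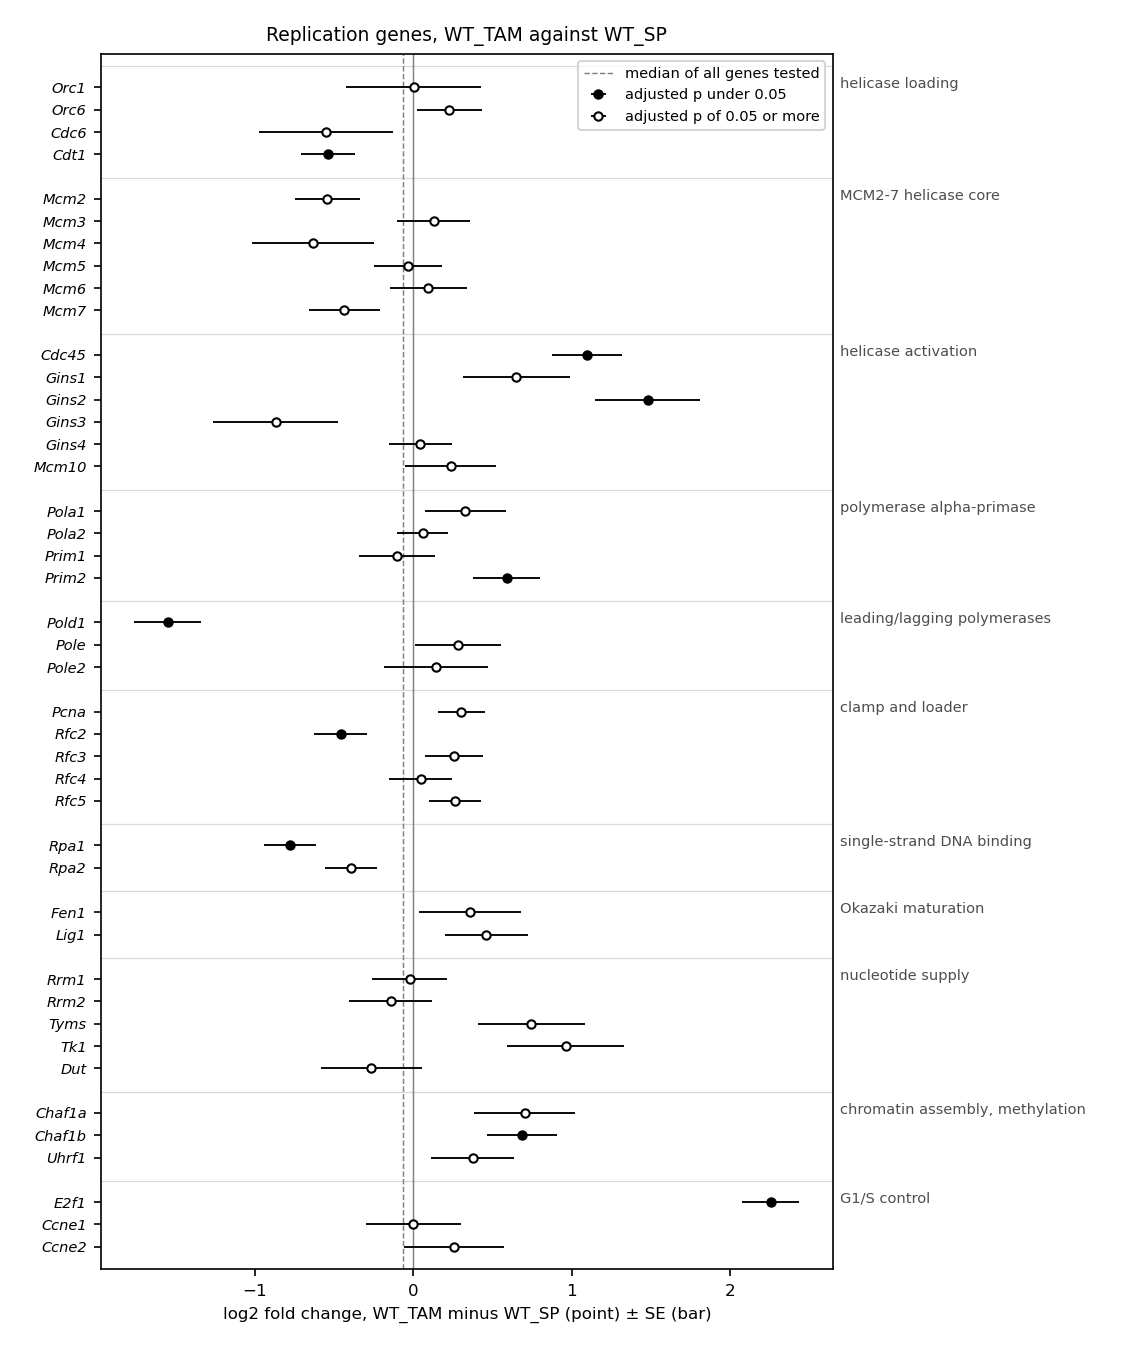
Log2 fold change (WT_TAM minus WT_SP, on log2(CPM + 0.5)) ± SE of the 43 genes by role, with filled points for the 9 called and a dashed line at the median of all genes. E2f1 lies at 2.25 and Pold1 at -1.55, with most genes near 0.

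Other pathway genes also divided between the directions. Their values use the authors' factors only. Of 41 other replication machinery genes 5 were called higher and 5 lower, with Mcm8 (1.21 ± 0.23; limma adjusted p = 0.00273) and Dna2 (1.25 ± 0.45; 0.0473) among the higher. Asf1b (0.74), Dbf4 (0.60) and Top2a (0.83) were the others called higher, and Asf1a (-1.08), Chtf8 (-1.38), Cdc7 (-1.67), Pole4 (-0.69) and Orc5 (-0.67) were called lower. In the list of other nucleotide supply, Rrm2b, the p53-inducible reductase subunit (-1.72 ± 0.31), and Cad (-0.81 ± 0.18) were lower. Of the E2F-Rb and G1/S regulators 5 were called higher, with Cdkn1a, the inhibitor p21, at 784 ± 169 CPM in WT_TAM (SD, n = 4) and 7.78 ± 0.266 CPM in WT_SP (SD, n = 3; 6.55 ± 0.19; limma adjusted p = 3.47e-07). The others were Ccnd1 (2.53), E2f7 (1.95), Cdk6 (1.56) and Ccna2 (1.04). Ccnd2 (-1.41), Cdkn1b (-1.01), Tfdp2 (-0.91), E2f2 (-0.84), Cdc25a (-0.68) and Cdkn2d (-0.56) were called lower. Of 9 checkpoint genes 5 were called lower, Rad1 (-1.07), Etaa1 (-1.04), Atr (-1.005), Rad17 (-0.98) and Rad9a (-0.84), and 0 higher, with a median of -0.87.

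The mitosis genes differed between the same libraries, with all 20 above 0 and 15 called higher, and sums of 664 to 987 CPM in WT_TAM and 282 to 523 CPM in WT_SP. Within WT_SP the replication genes were mostly highest in WT_SP1 (38 of 43) and lowest in WT_SP2 (40 of 43). Mitosis genes summed to 523, 282 and 391 CPM in WT_SP1 to WT_SP3, and erythroid markers to 5037, 1451 and 1082 CPM. In WT_TAM the erythroid markers summed to 196 to 797 CPM, with 10 of 10 called lower than in WT_SP. Red pulp macrophage markers summed to 3755 to 4210 CPM in WT_SP and 361 to 750 CPM in WT_TAM (6 of 8 called lower in WT_TAM, 1 higher). Dendritic cell markers were at 490 to 520 against 41.6 to 145 CPM (5 of 7 called lower). Markers of B and plasma cells summed to 7922 to 9029 CPM in WT_SP and 80.5 to 237 CPM in WT_TAM, with 7 of 8 called lower in WT_TAM. Markers of T and NK cells were at 831 to 868 against 61.6 to 97.7 CPM (8 of 8 called lower), and those of neutrophils at 843 to 2155 against 118 to 238 CPM (7 of 10 called lower). Fibroblast markers were at 9.50 to 55.5 against 541 to 1179 CPM (8 of 8 called higher in WT_TAM), and mitochondrial transcripts at 5909 to 7916 against 11152 to 70289 CPM (8 of 9 called higher). Of the defining macrophage markers 8 of 12 were called higher in WT_TAM. The part of other cells in the values of the replication genes was not tested.

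Side by side, with the WT_TAM libraries shared, Cdc45 stood at -0.92 between the genotypes and 1.10 between the sites, Gins2 at -0.96 and 1.48, E2f1 at -0.05 and 2.25, Pold1 at -0.62 and -1.55, and Pcna at -0.06 and 0.30.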

How the data were processed

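RNA of 11 macrophage libraries was sequenced on an Illumina instrument. The submitters' processing notes name TopHat2, HISAT2, HISAT, SAMtools, HTSeq, DESeq2 and the build mm10, and the sources used here give no strand setting or annotation. In the 2 tables deposited by the authors each gene has a score per library, with decimals and negative values, and not read counts. Each score is the reads of a gene divided by its length, the library's total and its scaling factor, multiplied by the libraries' factors in turn down the genes. Dividing these out gave whole reads (tolerance 2e-05 reads) for every gene, and 98 values in 35 genes that had been altered were restored, none of them in the 43 genes. Of these, 49 WT_TAM values were taken from the other deposited table. The 49 KO_TAM values were inferred, by a search for 1 round amount that, added or taken away, gave whole reads. Levels were compared only within a table.

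CPM were computed from the recovered reads and the authors' factors. A gene was tested if it reached a CPM equal to 10 reads in a library of median size, in as many libraries as the smaller group holds, with 15 reads in all. Log2(CPM + 0.5) was fitted with limma 3.58.1 (trend, robust) in R 4.3.3, 2-sided, with Benjamini-Hochberg adjustment of p-values over all genes tested, with a threshold of 0.05. Fold changes on this scale understate changes of low genes, and the values of 3 reads cover counting error only. The scripts were tested on simulated data. Alternatives changed the filter, pseudocount, scaling, values, weights, replicate block and libraries. Tables and figures used Python 3.11.15, pandas 2.3.3, numpy 2.4.6 and matplotlib 3.10.9.

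The 43 genes and all lists were chosen with earlier results of these data known. Every library's value is given for the gene of highest mean CPM in each role and the 5 genes with the smallest p in each comparison, with any gene against the common direction or not tested named as well.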

Additional observations from a re-analysis of the deposited data

Results flagged for a closer look

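Of 32 groups of 4 libraries examined among the genes described in full, 3 had 1 library far from the others, and chance alone gives about 1 in 20. Gins4 was at 54.2 CPM in the library labelled WT_TAM4, with the rest of WT_TAM at 32.4 to 35.0 CPM. Tk1 was at 88.8 CPM in the same library, with the rest at 27.5 to 36.9 CPM. Pola2 was at 28.2 CPM in KO_TAM2, with the rest of KO_TAM at 35.9 to 36.1 CPM.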

How the results depend on the processing

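Between the genotypes limma called 98 genes with no filter on low reads, 4 with the deposited values as they stand, 387 with array weights and 65 without KO_TAM2 and WT_TAM4, against 0, and array weights called 4 replication genes. For named genes E2f1 stood at 0.020 and Pcna at 0.013 with library totals, and E2f1 ranged from -0.117 (without WT_TAM3) to 0.038 (without KO_TAM4) with 1 library left out. Between tumor and spleen the number of replication genes called was 5 with no filter (8.35% of all genes called higher, 8.93% lower), 4 with the deposited values (19.9% and 18.5%), 21 with array weights and 5 to 17 over the fits that each left out 1 library. With library totals the median of the replication genes was -0.35, and Gins4 stood at -0.43, Lig1 at -0.0094, Mcm6 at -0.38, Pcna at -0.17, Pola2 at -0.41 and Uhrf1 at -0.10. Mcm6 was at -0.16 with quantile normalization and from -0.045 (without WT_SP2) to 0.29 with 1 library left out. Gins4 was at -0.084 with array weights and from -0.10 (without WT_TAM4) to 0.113 with 1 left out. Rrm1 was at 0.15 with the deposited values, 0.19 with array weights and from -0.143 to 0.17 with 1 left out, above 0 without WT_SP1 or WT_TAM4 (0.13). The cause was not tested.

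The replicate numbers did not pair the libraries (correlations of same-numbered deviations from -0.16 to 0.20). With the replicate number as a block 0 replication genes were called between the genotypes and 21 between tumor and spleen (31.9% of all genes higher, 32.3% lower), with Gins4 at -0.10 and Rrm1 at 0.13. Mcm2, Mcm7, Rpa2, Pcna, Tk1 and Lig1 were among those 21 and not among the 9. WT_TAM4 has no partner in WT_SP and adds nothing to that fold change. The depth, lowest in WT_TAM4, limits genes with few reads such as Fen1 and Orc1.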
